A study of Macaca fascicularis with 16 samples.

Results

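Macrophage markers and the complement component C1q were followed in mammary tissue of ovariectomized, postmenopausal female cynomolgus macaques in a study of hormone replacement therapy. The 10 genes were CD68, CSF1R, C1QA, C1QB, C1QC, MS4A7, MRC1, TYROBP, CD14 and CLEC7A. They are 10 of 14132 genes that the array's annotation names with a single symbol. They were represented by all 18 probe sets of the array, of 52865 in all, whose annotation gave 1 of these symbols and no other. Of these 18, 13 passed a filter on low signal and were tested among 28704 probe sets, and at least 1 probe set of each of the 10 genes was tested.

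Each of 4 groups held 4 animals with 1 array each. The control animals received no treatment. The CEE group received conjugated equine estrogens at 0.042 mg/kg. The CEE+MPA group received the same estrogens at 0.042 mg/kg with medroxyprogesterone acetate, a progestin, at 0.167 mg/kg. The tibolone group, whose samples also carry the name OD14-HIGH, received tibolone, a synthetic steroid, at 0.2 mg/kg. All groups share the removal of the ovaries. The labels used here give no age, duration or dosing schedule. RNA came from whole tissue, so fewer macrophages and less RNA of these genes per macrophage cannot be told apart.

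Macrophages are resident phagocytes of the mammary stroma that surround ducts and alveoli and take part in the growth and regression of the gland. Their survival depends on signals through the receptor encoded by CSF1R. Tissue macrophages are also a main source of C1q, the recognition molecule of the classical complement pathway, which is assembled from chains encoded by C1QA, C1QB and C1QC. In the RefSeq gene order of the cynomolgus macaque, C1QB, C1QC and C1QA were consecutive genes of chromosome 1.

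Among markers of the labelled tissue, 7 luminal epithelial genes passed the filter, KRT8, KRT18, KRT19 and EPCAM among them. The arrays also differed in ways that the labels do not name and that were spread unevenly over the groups. Signals of dap and thr, bacterial control transcripts of the kind spiked into RNA before labelling, divided the arrays into a low set of 6 and a high set of 10, which the labels do not name. The log2 signal of GAPDH probe sets at the 3' end minus those at the 5' end, a sign of RNA or labelling quality, was 0.002 to 0.247 in the low set and 0.105 to 0.873 in the high set. The low set held 2 arrays each of control, CEE and CEE+MPA. The high set held the other 2 arrays of each and all 4 tibolone arrays, so differences that involve tibolone could be compared within the high set only. The mean of 11 skeletal muscle markers, with each gene set to a mean of zero over all arrays, exceeded 1 on control replicate 1, CEE+MPA replicate 1 and tibolone replicates 2 and 3. It lay between -1.30 and -0.92 on the 4 CEE arrays.

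With CEE, the signals of most of these genes lay below the control level, but none passed the threshold of 0.05 after adjustment over all probe sets tested. Of the 13 probe sets, 0 passed (limma, Benjamini-Hochberg), where 0.0732% of all probe sets did. At an unadjusted p under 0.05 there were 8 of 13, all lower, beside 12.5% of all probe sets. For 5 of 13 all CEE arrays lay below all control arrays, beside 4.74% of all probe sets, and for 0 of 13 all lay above, beside 4.21%. The median log2 difference was -0.67 over the 13 and 0.00 over all probe sets, and 12 of 13 lay below zero.

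With CEE+MPA, MS4A7 fell, and the other probe sets did not pass. That is 1 of 13 past the adjusted threshold, where 6.34% of all probe sets passed, so the share of the members was close to the background. At an unadjusted p under 0.05 there were 8 lower and 2 higher, beside 24.1% of all probe sets in either direction. The 2 higher were CD14 and the first probe set of MRC1. Groups did not overlap for 5 probe sets that were lower, beside 9.42% of all, and for 1 that was higher, CD14, beside 6.65%. The median was again -0.67, against -0.01 over all probe sets, and 11 of 13 lay below zero. Of all 1819 probe sets past the threshold in this comparison, 69.2% were lower; after centring each array on its median, 49.8% were.

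With tibolone, no member passed. Of the 13, 0 passed the adjusted threshold, beside 0.0244% of all probe sets. At an unadjusted p under 0.05 there were 2 of 13, beside 5.41% of all: the first probe set of CD68 and MS4A7, both lower. For MS4A7 all tibolone arrays lay below all controls, beside 1.53% of all probe sets, and the remaining probe sets overlapped. The median was -0.11, against 0.01 over all probe sets, and 11 of 13 lay below zero, beside 48.3% of all. CEE and CEE+MPA share the 4 control arrays with tibolone, so the 3 comparisons are not independent of each other.

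**Figure D1:**
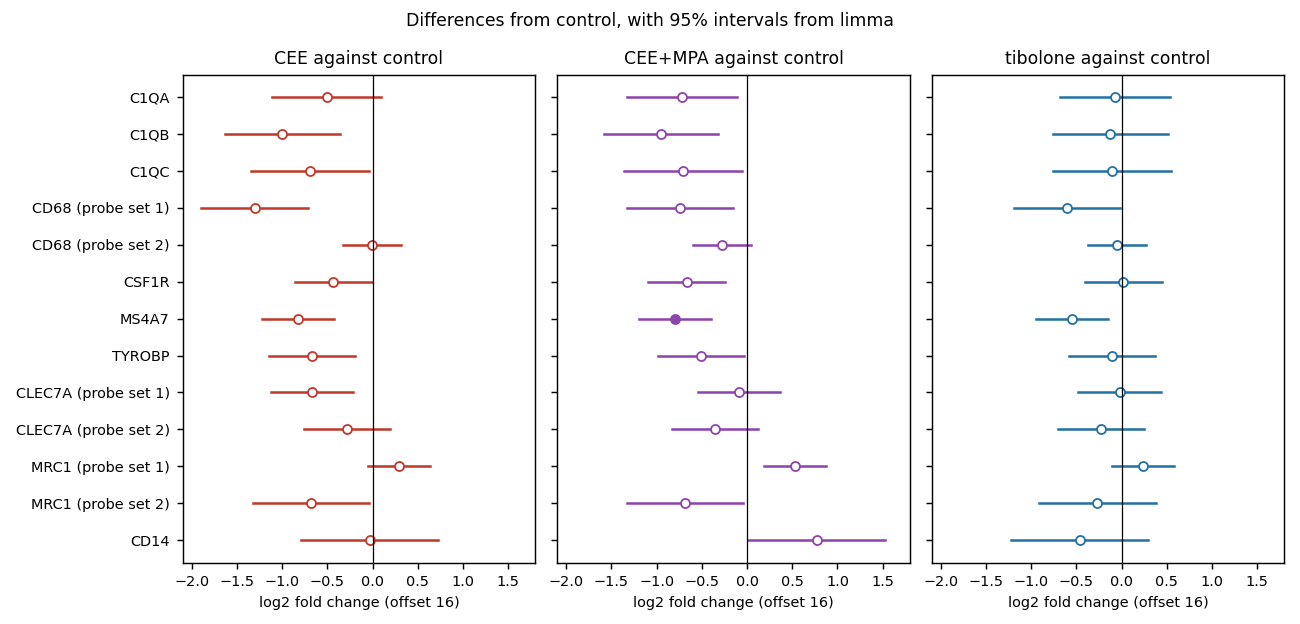
Log2 fold changes (horizontal axis, offset of 16) of the 13 tested probe sets of the 10 genes against control with CEE, CEE+MPA and tibolone; bars are 95% intervals from limma, 4 arrays per group, and a filled point has an adjusted p under 0.05. MS4A7 with CEE+MPA is the only filled point, and CD14 and the first probe set of MRC1 lie to the right of zero with CEE+MPA.

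All 3 chains of C1q lay below control with CEE and with CEE+MPA. C1QB, the B chain, had control signals of 1304, 2014, 1540 and 1743, CEE signals of 701, 962, 1176 and 539, and CEE+MPA signals of 1163, 724, 893 and 649. All 8 treated arrays lay below all 4 controls. The log2 difference was -0.996 ± 0.30 (SE, n = 4 per group; limma, adjusted p = 0.225) with CEE and -0.95 ± 0.30 (adjusted p = 0.0659) with CEE+MPA, so neither passed. The latter passed in 3 of 20 alternatives: the filter at the 75th percentile, the 2 groups alone and the arrays without high muscle signal. On the 4 tibolone arrays C1QB gave 1449, 1698, 2421 and 834, which spanned the control range, and the difference from control was -0.12 ± 0.30 (adjusted p = 0.974). Without the 4 arrays of high muscle signal that difference was -0.67, and the part of muscle in it was not tested. Within the low and high spike-in sets C1QB differed by -0.98 and -1.01 with CEE and by -0.90 and -0.997 with CEE+MPA.

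C1QA, the A chain, gave control signals of 1611, 1977, 2392 and 2032. With CEE it gave 1077, 1881, 2001 and 924, so that replicates 2 and 3 lay within the control range and replicates 1 and 4 below it. With CEE+MPA it gave 1498, 1289, 1053 and 1012, all below the controls. The log2 differences were -0.51 ± 0.29 (adjusted p = 0.489) and -0.72 ± 0.29 (adjusted p = 0.136). The latter passed in a fit of the 2 groups alone (adjusted p = 0.0456). Tibolone replicate 3, one of the arrays with muscle signal, stood at 3429, while the other tibolone arrays lay between 1464 and 1655. The second C1QA probe set was dim, with signals of 17.4 to 77.8 over the 16 arrays, and was not tested.

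C1QC, the C chain, gave control signals of 520, 618, 731 and 1181, CEE signals of 430, 633, 453 and 309, and CEE+MPA signals of 586, 332, 344 and 548. Control replicate 4 was far above the rest, and both treated groups overlapped the controls. The log2 differences of -0.70 ± 0.31 (adjusted p = 0.374) and -0.71 ± 0.31 (adjusted p = 0.172) did not pass. The latter passed with the spike-in sets of 7 and 9 arrays as a block (adjusted p = 0.0435), an alternative added after the data were seen, and was -0.48 without control replicate 4 (adjusted p = 0.360). Over the 16 arrays the log2 signals of the 3 chains had Pearson correlations of 0.760 to 0.846 with each other, and of 0.628 to 0.773 after each group mean was taken out. These points share array, depth of scaling and tissue make-up, and the correlations are given as a description.

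**Figure D2:**
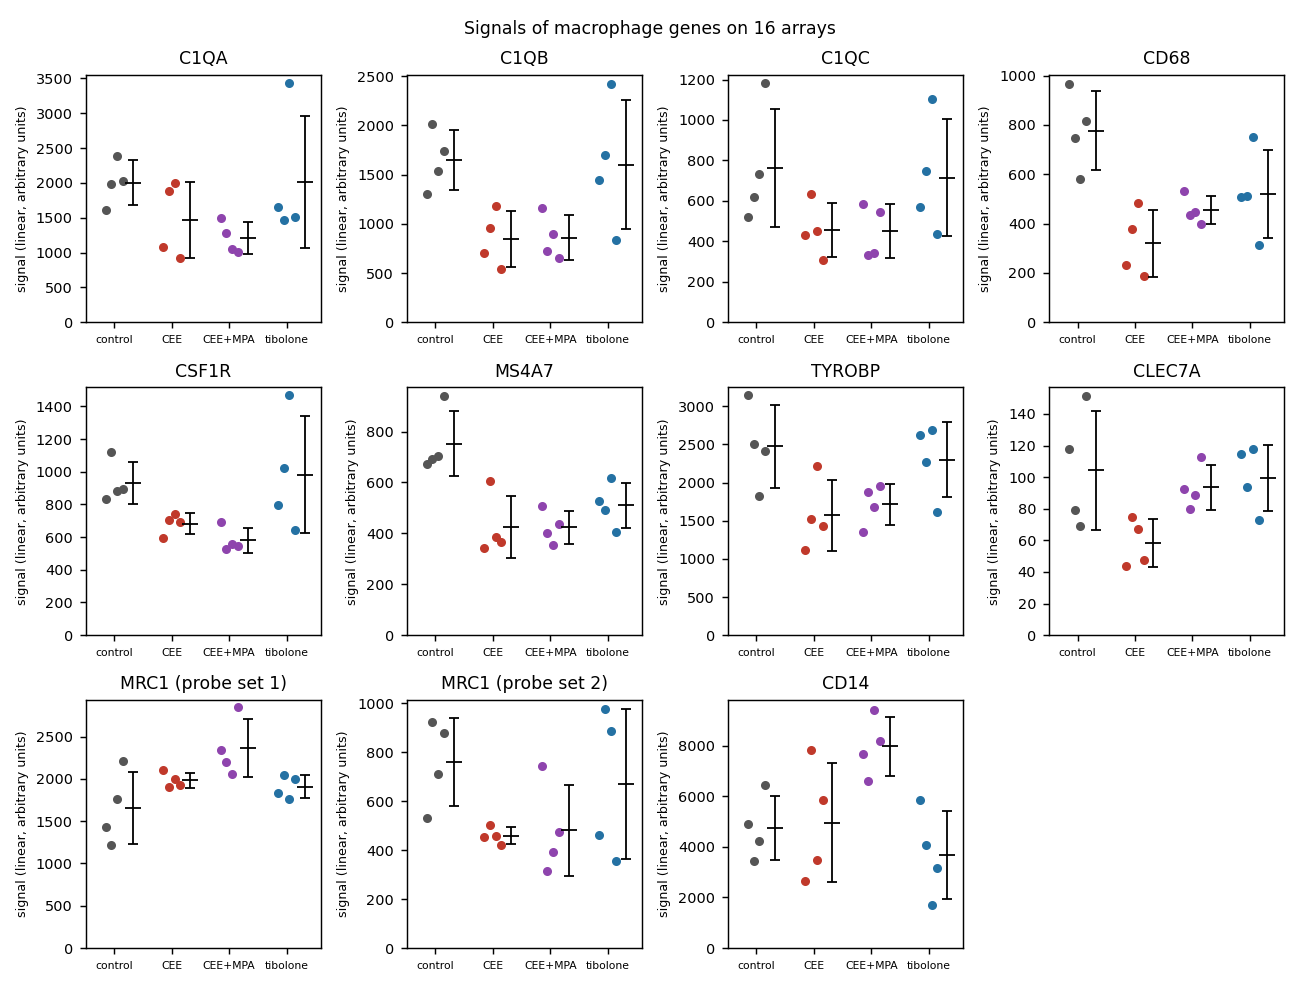
Signals (linear scale, arbitrary units, axis from 0) of the 10 genes, with both brighter MRC1 probe sets, on the 4 arrays of each group; coloured points are arrays in replicate order, and black bars are mean ± SD. C1QB, MS4A7, CSF1R and CD68 lie below all control arrays with CEE and with CEE+MPA, and CD14 with CEE+MPA lies above all controls. CD68 and CLEC7A are drawn by their first probe sets only.

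Among the markers of the lineage itself, MS4A7, a membrane protein of the MS4A family found on monocytes and macrophages, was the gene that passed. Its control signals were 671, 692, 706 and 941. They were 508, 400, 354 and 436 with CEE+MPA, 344, 607, 384 and 368 with CEE, and 527, 493, 616 and 404 with tibolone. All 12 treated arrays lay below all 4 controls. With CEE+MPA the log2 difference was -0.80 ± 0.19, a fold of 0.574 (limma, adjusted p = 0.0243). With CEE it was -0.82 ± 0.19 (adjusted p = 0.117) and with tibolone -0.55 ± 0.19 (adjusted p = 0.837). CEE and CEE+MPA differed from each other by 0.02, with a 95% interval of -0.38 to 0.42.

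The MS4A7 call was lost without some single arrays, while its log2 difference stayed between -0.89 and -0.69 with any single array left out. Its adjusted p was 0.0651 without control replicate 2, 0.0640 without CEE+MPA replicate 2 and 0.0760 without CEE+MPA replicate 3. Calls over all probe sets also fell there, from 1819 to 348, 658 and 552 in the same order. The log2 difference itself was -0.77 within the low spike-in set and -0.83 within the high set, where 2 arrays stood against 2 and the adjusted p was 0.393 and 0.0787. Within the low set 0 of 28704 probe sets passed. A second MS4A7 probe set, with signals of 16.9 to 69.9, and another, with 2.20 to 26.9, were too dim to be tested.

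CD68, a lysosomal glycoprotein widely used to stain macrophages, had the largest difference of the 13 with CEE, and its probe sets disagreed. The first gave 965, 746, 581 and 815 in controls, 231, 379, 482 and 189 with CEE, 534, 434, 448 and 401 with CEE+MPA, and 506, 513, 751 and 315 with tibolone. All CEE and all CEE+MPA arrays lay below all controls, whereas tibolone replicate 3 lay within the control range. The differences were -1.30 ± 0.28 (adjusted p = 0.0830) with CEE, a fold of 0.405, then -0.74 ± 0.28 (adjusted p = 0.116) with CEE+MPA and -0.60 ± 0.28 (adjusted p = 0.913) with tibolone. That with CEE+MPA passed in a fit of the 2 groups alone (adjusted p = 0.0421). The second CD68 probe set lay between 171 and 297 on every array, with differences of 0.00 ± 0.15, -0.28 ± 0.15 and -0.05 ± 0.15, and its groups overlapped. Its correlation with the first over the 16 arrays was 0.124.

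CSF1R, the receptor for the growth factors CSF1 and IL34, gave control signals of 832, 1122, 881 and 896. They were 594, 703, 740 and 695 with CEE and 690, 527, 556 and 548 with CEE+MPA, all below the controls. The differences of -0.44 ± 0.20 (adjusted p = 0.391) and -0.67 ± 0.20 (adjusted p = 0.0579) did not pass. The latter passed in 4 of 20 alternatives, with an adjusted p of 0.0229 without the arrays of high muscle signal. Tibolone ran from 643 to 1468, on both sides of the control range, with the highest value on replicate 3, and differed from control by 0.02 ± 0.20 (adjusted p = 0.999). Without the 4 arrays of high muscle signal the tibolone difference was -0.42.

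TYROBP, the adaptor that carries the activating signal of receptors such as TREM2 into myeloid cells, gave 3145, 2507, 1826 and 2417 in controls. With CEE it gave 1110, 1519, 2222 and 1434, where replicate 3 lay within the control range. With CEE+MPA it gave 1351, 1872, 1675 and 1958, where replicates 2 and 4 did. The differences were -0.67 ± 0.22 (adjusted p = 0.262) and -0.51 ± 0.22 (adjusted p = 0.175), and with tibolone -0.11 ± 0.22 (adjusted p = 0.968).

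CLEC7A, the receptor for fungal beta-glucan also called dectin-1, was the dimmest of the genes, near the filter's limit of 60.2. Its first probe set gave 118, 79.0, 69.2 and 151 in controls, 43.5, 74.7, 67.3 and 47.5 with CEE, and 92.2, 79.9, 88.7 and 113 with CEE+MPA. All CEE+MPA arrays lay above all CEE arrays, as for 1.9% of all probe sets, and controls overlapped both. The difference from control was -0.67 ± 0.21 (adjusted p = 0.246) with CEE and -0.09 ± 0.21 (adjusted p = 0.840) with CEE+MPA. CEE+MPA differed from CEE by 0.57 ± 0.21 (adjusted p = 0.525). The second tested probe set did not show this: its difference between CEE+MPA and CEE was -0.07 ± 0.22, and against control it gave -0.28 ± 0.22 and -0.35 ± 0.22. With CEE+MPA that second value was -0.94 within the low spike-in set and 0.24 within the high set. Another CLEC7A probe set, at 10.6 to 72.2, was not tested. TYROBP and the second CLEC7A set have the suffix that Affymetrix gives to probe sets shared by several transcripts.

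MRC1, the mannose receptor CD206 of resident and alternatively activated macrophages, had probe sets that went opposite ways. The first gave 1429, 1224, 1766 and 2207 in controls, 2100, 1904, 1996 and 1932 with CEE, and 2345, 2197, 2059 and 2848 with CEE+MPA. Only control replicate 4 reached into the CEE+MPA range. The difference with CEE+MPA was 0.53 ± 0.16 (adjusted p = 0.0608), and with CEE 0.29 ± 0.16 (adjusted p = 0.485). The former passed in 7 of 20 alternatives, both spike-in blocks among them, and without control replicate 4 it was 0.68 (adjusted p = 0.0187). The second gave 530, 925, 712 and 880 in controls and 454, 503, 458 and 421 with CEE, all below the controls. It gave 744, 316, 391 and 473 with CEE+MPA, where replicate 1, an array of high muscle signal, lay within the control range. Its differences were -0.68 ± 0.30 with CEE (adjusted p = 0.376) and -0.68 ± 0.30 with CEE+MPA (adjusted p = 0.181). Without the 4 arrays of high muscle signal the latter was -1.07 (adjusted p = 0.0140). The 2 probe sets had a correlation of -0.303 over the arrays. Which of them measures MRC1 transcripts of this species was not tested, and another probe set, at 27.1 to 80.0, was too dim.

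CD14, the coreceptor that hands bacterial lipopolysaccharide to TLR4, had the opposite sign to most members with CEE+MPA. It gave 4897, 3456, 4229 and 6452 in controls and 7658, 6625, 9415 and 8209 with CEE+MPA, so that all CEE+MPA arrays were higher. The difference was 0.77 ± 0.36, a fold of 1.70 (adjusted p = 0.201), and did not pass. With CEE its arrays were spread from 2644 to 7816, and the difference from control was -0.03 ± 0.36 (adjusted p = 0.985). With tibolone it gave 5840, 4090, 1692 and 3156, all below the CEE+MPA arrays. Tibolone replicate 3, which had the highest C1QA, C1QB and CSF1R of its group, had the lowest CD14.

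**Figure D3:**
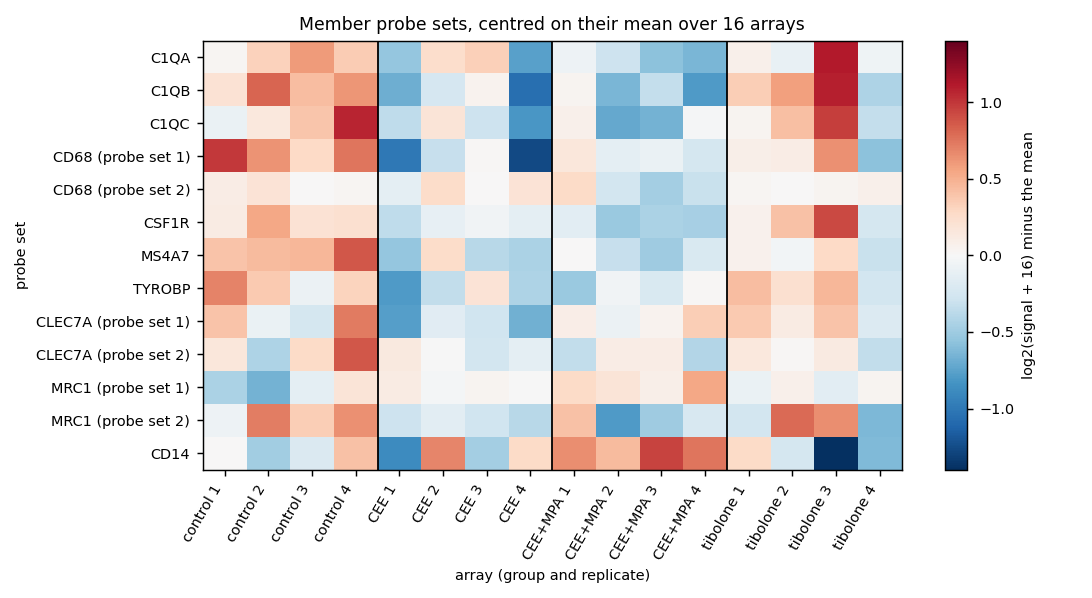
Log2(signal + 16) of the 13 tested probe sets (rows) on the 16 arrays (columns, by group and replicate), each probe set centred on its mean; red is above and blue below that mean. Control arrays are mostly red from C1QA to TYROBP, CEE and CEE+MPA arrays mostly blue, and the CD14 row is red on all CEE+MPA arrays and darkest blue on tibolone replicate 3.

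Scaling of whole arrays cancels when 2 probe sets of the same array are compared. These comparisons were chosen after the values were seen, with CD14 taken because it lay the other way, so they are given without a test. The log2 difference of CD14 minus C1QB was 1.499 ± 0.53 (SD, n = 4) in controls and 3.22 ± 0.39 with CEE+MPA, a shift of 1.72. The shift was 1.57 against MS4A7, 1.51 against CD68, 1.49 against C1QA, 1.48 against C1QC, 1.44 against CSF1R, 1.28 against TYROBP and 0.86 against CLEC7A. For these 8 the 4 CEE+MPA arrays did not overlap the 4 controls. The 8 share the same CD14 values and are not separate results, and their direction follows from the choice of CD14. How often other pairs of probe sets fail to overlap was not computed. Against the first probe set of MRC1 the shift was 0.24 and the arrays overlapped. The first minus the second probe set of MRC1 shifted by 1.22 without overlap. Such a shift describes unequal change of 2 probe sets chosen for it, and not which of them changed.

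**Figure D4:**
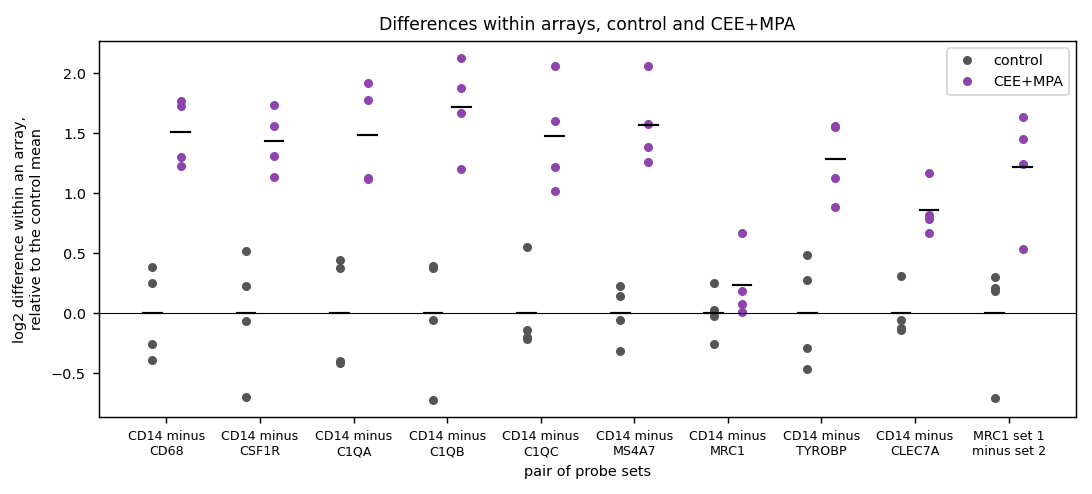
Log2 difference of 2 probe sets within an array, relative to the control mean, for 10 pairs; grey points are the 4 control arrays, purple points the 4 CEE+MPA arrays, and black lines their means. The CEE+MPA points lie above the control points in 9 pairs and overlap them for CD14 minus MRC1.

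Between treatments, no member passed. For CEE+MPA against CEE 0 of 13 passed, beside 0.0209% of all probe sets. CD14 (0.80 ± 0.36, adjusted p = 0.623) and CLEC7A had an unadjusted p under 0.05, beside 7.72% of all. The 3 chains of C1q differed between these groups by -0.21, 0.05 and -0.01, and the 95% interval for C1QB ran from -0.58 to 0.68.

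Tibolone against CEE gave 0 of 13, beside 0.00697% of all probe sets, and 5 of 13 at an unadjusted p under 0.05, beside 11.9%. All 5 were higher with tibolone: C1QB (0.87 ± 0.30), CD68 (0.70 ± 0.28), CLEC7A (0.64 ± 0.21), TYROBP (0.56 ± 0.22) and CSF1R (0.45 ± 0.20), with adjusted p of 0.286 to 0.392. Without the 4 arrays of high muscle signal, 2 of which are tibolone arrays, they were 0.44, 0.40, 0.56, 0.43 and 0.07. The part of muscle in these differences was not tested.

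Tibolone against CEE+MPA also gave 0 of 13, beside 6.34% of all probe sets, and 4 of 13 at an unadjusted p under 0.05, beside 25.1%. CD14 was at -1.23 ± 0.36 (adjusted p = 0.0513) with groups that did not overlap, beside 5.57% of all probe sets that were lower without overlap. CSF1R was at 0.68 ± 0.20 (adjusted p = 0.0537), C1QB at 0.83 ± 0.30 (adjusted p = 0.102) and C1QA at 0.65 ± 0.29 (adjusted p = 0.172). Without the 4 arrays of high muscle signal CD14, CSF1R, C1QB and C1QA were at -0.90, 0.39, 0.55 and 0.50. Without tibolone replicate 3 C1QA was at 0.36 (adjusted p = 0.443). C1QC was at 0.60 ± 0.31 (adjusted p = 0.233) and at 0.78 with the sets of 7 and 9 arrays as a block (adjusted p = 0.0374). The first MRC1 probe set was also lower without overlap, at -0.30 ± 0.16 (adjusted p = 0.265). Without tibolone replicate 4 CSF1R was at 0.86 (adjusted p = 0.0118) and C1QB at 1.10 (adjusted p = 0.0191). Without tibolone replicate 1 CD14 was at -1.50 (adjusted p = 0.0324). Of all 1820 probe sets past the threshold 40.3% were lower with tibolone, and 61.6% after centring on the median.

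Over the 16 arrays most members had similar profiles. The Pearson correlation of a member with the mean of the other 9 was 0.869 for CD68, 0.842 for MS4A7, 0.811 for C1QB, 0.804 for C1QC and 0.783 for CLEC7A. It was 0.694 for TYROBP, 0.670 for C1QA and 0.643 for CSF1R. It was -0.276 for CD14 and -0.368 for the first probe set of MRC1, and 0.741 for the second. The values for CD68 and CLEC7A are of their first probe sets, and the second probe sets were at 0.265 and 0.412. After group means were taken out, CD68 was at 0.779, MS4A7 at 0.822, CD14 at -0.073 and the first MRC1 probe set at 0.044. The arrays share scaling and tissue make-up, and the correlations are a description over these 16 arrays.

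The 8 genes most like the mean of the members, of 10442 ranked by their correlation over the 16 arrays, were LOC715814 (0.937), RENBP (0.897), PTAFR (0.893), PLA1A (0.865), IFI30 (0.861), SAMD9L (0.859), AIF1 (0.858) and RNASE6 (0.854). PTAFR is the receptor for platelet-activating factor, IFI30 a lysosomal thiol reductase used in antigen processing, and AIF1 the macrophage protein Iba1. Mean signals of IFI30 were 1726 in controls, 883 with CEE, 1041 with CEE+MPA and 1449 with tibolone. Those of AIF1 were 292, 179, 189 and 287. RENBP, PTAFR and PLA1A were dim, with group means of 56.0 to 111, 72.2 to 112 and 56.5 to 85.6, near the filter's limit of 60.2.

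Other genes of the lineage had a similar pattern of signs. Of 40 listed macrophage and monocyte genes 23 were tested, 1 probe set each. With CEE 22 of 23 lay below zero, with a median of -0.67, and 0 passed. The smallest p belonged to GPNMB, a glycoprotein of lipid-laden macrophages (-1.20 ± 0.25, adjusted p = 0.0791), the chemokine CCL2 (-1.10 ± 0.32) and the folate receptor FOLR2 (-0.78 ± 0.24). With CEE+MPA 20 of 23 lay below zero, with a median of -0.54. Past the threshold were 2 of 23, both lower, close to the background of 6.34% of all probe sets. These were CCL2, which attracts monocytes (-1.98 ± 0.32, adjusted p = 0.00442), and GPNMB (-1.05 ± 0.25, adjusted p = 0.0251). With tibolone 13 of 23 lay below zero, with a median of -0.08, and 0 passed. CCL2 was higher with tibolone than with CEE+MPA (1.24 ± 0.32, adjusted p = 0.0369). Against control, the CCL2 call with CEE+MPA held with each single array left out and was lost in 1 of 20 alternatives, within the low spike-in set (adjusted p = 0.258). In that set 0 of 28704 probe sets passed. The GPNMB call was lost without control replicates 1, 2 or 3 or CEE+MPA replicates 2 or 3, with differences from -1.396 to -0.701 over 20 alternatives. The CCL2 call between tibolone and CEE+MPA was lost in 12 of 19 settings tried, including without CEE+MPA replicates 1, 3 or 4 or tibolone replicates 1, 2 or 3, and ran from 1.06 to 1.498.

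Of 31 other complement genes 12 were tested. With CEE+MPA 3 of 12 fell and 1 rose, beside 6.34% of all probe sets past the threshold in either direction. C1S, a protease of the C1 complex, fell from a mean signal of 6182 to 2578 (-1.29 ± 0.18, adjusted p = 0.00255). SERPING1, the inhibitor of that complex, fell from 4759 to 2100 (-1.15 ± 0.17, adjusted p = 0.00304). CFD, factor D of the alternative pathway and an adipocyte product (adipsin), fell from 8328 to 3075 (-1.42 ± 0.36, adjusted p = 0.0318). C1QBP, a mitochondrial protein named for its binding of C1q, rose from 1952 to 3096 (0.64 ± 0.18, adjusted p = 0.0496). With CEE C1S was at -0.85 ± 0.18 (adjusted p = 0.0762) and SERPING1 at -0.63 ± 0.17 (adjusted p = 0.176), and 0 of 12 passed. C1S, SERPING1 and CFD were higher with tibolone than with CEE+MPA, by 1.09 ± 0.18, 1.02 ± 0.17 and 1.36 ± 0.36 (adjusted p of 0.00625, 0.00630 and 0.0384). The C1S and SERPING1 calls against control held with each single array left out and were lost in 1 of 20 alternatives, within the low spike-in set. There, 0 of 28704 probe sets passed. The CFD call was lost in 11 of 20, among them without any control or CEE+MPA array other than control replicate 4, and its difference ran from -1.58 to -1.20. That of C1QBP was lost in 13 of 20, among them without any of these arrays other than CEE+MPA replicate 4, and ran from 0.49 to 0.80. Between tibolone and CEE+MPA, the CFD call was lost in 12 of 19, including without any CEE+MPA array or tibolone replicates 1, 2 or 3, and ran from 0.79 to 1.67. All 3 differences from tibolone missed the threshold without the 4 arrays of high muscle signal, where they were 0.94, 0.80 and 0.79 (adjusted p of 0.245, 0.279 and 0.587). In that setting 0 of 28704 probe sets passed. C1S and SERPING1 are also made by fibroblasts and other stromal cells.

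Of 19 ligands and signalling partners 14 were tested. Past the threshold with CEE+MPA were 2 lower and 1 higher, beside 6.34% of all probe sets in either direction. With CEE+MPA IL34, a ligand of CSF1R, fell from 422 to 168 (-1.17 ± 0.27, adjusted p = 0.0242). TREM1, a receptor that signals through TYROBP, fell from 104 to 44.5 (-0.97 ± 0.28, adjusted p = 0.0493). It was dim: that CEE+MPA mean and the CEE mean of 57.9 lay under the filter's limit of 60.2. PLCG2, a phospholipase downstream of CLEC7A, rose from 2119 to 3356 (0.66 ± 0.13, adjusted p = 0.0117) and was lower with tibolone than with CEE+MPA (-0.54 ± 0.13, adjusted p = 0.0289). The PLCG2 call against control held with each single array left out and was lost in 2 of 20 alternatives, within the low spike-in set (adjusted p = 0.348) and without the arrays of high muscle signal (adjusted p = 0.066). Within the low set 0 of 28704 probe sets passed. The IL34 call was lost in 7 of 20 alternatives, among them without control replicates 1 or 2 or CEE+MPA replicates 1, 2 or 3, and ran from -1.58 to -0.76. That of TREM1 was lost in 15 of 19, among them without control replicates 1 or 2 or any CEE+MPA array, and ran from -1.24 to -0.61. The PLCG2 call between tibolone and CEE+MPA was lost in 9 of 19, including without CEE+MPA replicates 1 or 3 or tibolone replicates 2 or 3, and ran from -0.62 to -0.45. TLR4, the partner of CD14, was at -0.82 ± 0.16 with CEE (adjusted p = 0.0589). None of the 14 passed with CEE or with tibolone against control, and the medians were -0.09 and -0.06.

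Several marker lists of other cell types had the same signs as the members. The mean of the members' centred log2 values lay at 0.17 to 0.55 in controls, at -0.58 to 0.02 with CEE, at -0.21 to 0.06 with CEE+MPA and at -0.30 to 0.42 with tibolone. Over 5 neutrophil markers the list mean was 0.13 to 1.45, -0.84 to -0.03, -0.75 to -0.08 and -0.70 to 1.31 in the same order, and 5 of 5 lay below zero with CEE and with CEE+MPA. Fibroblast markers were below zero for 8 of 9 with CEE and with CEE+MPA, where 3 passed, and lymphatic endothelial markers for 6 of 6, where 1 passed with CEE+MPA. Endothelial markers were below zero for 9 of 9 with both, where 1 passed with CEE+MPA. Basal and myoepithelial markers were below zero for 3 of 4 with both, with medians of -0.19 and -1.14, and 2 fell with CEE+MPA. Adipocyte markers were below zero for 6 of 7 with CEE and 5 of 7 with CEE+MPA, where 1 passed as lower. Skeletal muscle markers were below zero for 11 of 11 and 9 of 11. Dendritic cell markers were below zero for 5 of 6 with both, B and plasma cell markers for 5 of 5 and 4 of 5. Mast cell markers were below zero for 3 of 3 with both. T and NK cell markers were below zero for 5 of 7 and 4 of 7, and 1 of them passed as higher with CEE+MPA. Luminal epithelial markers were below zero for 3 of 7 and 4 of 7, and 1 of them passed as higher with CEE+MPA. Over all probe sets 6.34% passed with CEE+MPA. The part of these cell types in the macrophage differences was not tested.

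**Figure D5:**
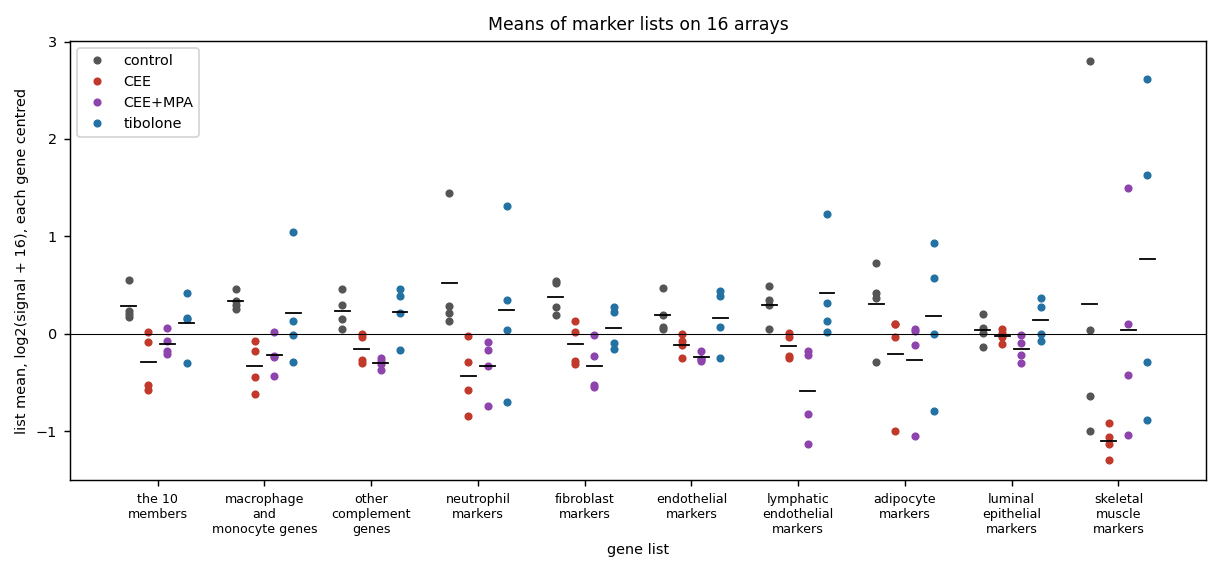
List means of log2(signal + 16) with every gene set to a mean of zero across arrays (vertical axis), for the 10 genes and 9 other lists; points are arrays, coloured by group, and black lines are group means. The 10 genes, the other macrophage and complement genes, and the neutrophil, fibroblast, endothelial and adipocyte markers have their highest group mean in controls. Lymphatic endothelial, luminal epithelial and skeletal muscle markers have theirs with tibolone. Skeletal muscle markers spread the most, up to 2.80 on a control array.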

How the data were processed

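Total RNA of mammary tissue was hybridized to Affymetrix rhesus macaque arrays, 1 per animal. The deposited values were linear intensity (signal) per probe set, scaled by the authors: without the top and bottom 2% of values, every array averaged 250.0. The submitters' processing notes name GCOS and Affymetrix Expression Console, with neither algorithm nor version.

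Genes were taken from the platform annotation: 24956 probe sets carried 1 symbol, 361 several and 27449 none, and 99 were Affymetrix controls and were left out. A probe set entered the tests if at least 4 of 16 arrays had a signal over 60.2, the median of all values. Group means were fitted to log2(signal + 16) in 1 limma model of all arrays, which understates fold changes at low signal. The 6 comparisons were adjusted over all 28704 probe sets by Benjamini-Hochberg at 0.05. Errors are standard errors from the model for log2 differences and standard deviations for signals. The number of arrays limits the precision.

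The first probe set of a gene is the tested one with the highest average log2 signal, and the others are given beside it. From each list of other genes at most 4 called genes were named per comparison, or the 3 with the smallest p where none was called; not every comparison is written out. The members, lists and rules were chosen with earlier results of these data known. The spike-in sets were split at the largest gap. The split of 7 and 9 arrays with the smallest sum of squares within sets, which moves tibolone replicate 3, was added as a block after the data were seen. Other alternatives were quantile normalization, median centring, offsets of 1 and 64, other filters, fits of 2 groups, and arrays left out. A search of promoters was not run, and sequences were not analysed here. Fits used limma 3.58.1 in R 4.3.3, and descriptions and figures Python 3.11.15 with matplotlib 3.10.9.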

Additional observations from a re-analysis of the deposited data

Results flagged for a closer look

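Of 52 sets of 4 arrays examined, 13 probe sets in 4 groups, 2 held an array far from the other 3, where chance gives about 1 in 20. C1QA stood at a signal of 3429 on tibolone replicate 3, while the other tibolone arrays lay between 1464 and 1655. On the same array the mean of the 23 other macrophage and monocyte genes was 1.04, the highest of the 16 arrays. The means of dendritic cell (1.53), lymphatic endothelial (1.23), adipocyte (0.93) and B and plasma cell markers (0.47) were also the highest of the 16 there, and that of skeletal muscle markers exceeded 1. The part of these cell types in the value was not tested. MS4A7 stood at 941 on control replicate 4, while the other controls lay between 671 and 706. Without that array MS4A7 was lower with CEE+MPA by a log2 difference of -0.69 (limma, adjusted p = 0.0480).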

How the results depend on the processing

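No paired analysis was possible because no animal is in more than 1 group and replicate numbers only follow the order of deposition. The 31 member differences with an unadjusted p under 0.05 kept their direction in all 606 values recomputed; 27 of these values newly passed the adjusted threshold and 5, all of MS4A7 with CEE+MPA against control, no longer did. Of the other 903 recomputed values, 81 changed sign, of differences that had not passed, and 1 newly passed. The within-array shifts kept their sign throughout, and the shift of CD14 minus C1QB ran from 1.48 to 2.02. Where the arrays of a pair did not overlap, leaving arrays out could not change the sign. Median centring cancels within an array, so the kept signs are no added support. The 14 differences past the threshold among the listed macrophage, complement and partner genes kept their sign in all alternatives run; the marker lists of other cell types were not recomputed. Causes were not tested.

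The count of members past the threshold with CEE+MPA against control, 1 of 13, was 2 with median centring or a block for the 2 spike-in sets, and 3 with an offset of 64 or the sets of 7 and 9 arrays as a block. It was 4 with the filter at the 75th percentile or without the 4 arrays of high muscle signal, 5 in a fit of the 2 groups alone and 0 within the low spike-in set. With arrays left out in turn it ran from 0, without control replicate 2 or CEE+MPA replicates 2 or 3, to 2, without control replicate 4. For tibolone against CEE+MPA, 0 became 1 with median centring and 2 with an offset of 64, the 75th percentile filter or the sets of 7 and 9 arrays. There, arrays left out in turn gave 0 to 2 (1 without tibolone replicate 1, 2 without tibolone replicate 4). The other 4 comparisons gave 0 members under every alternative.

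Counts over all probe sets moved more. With CEE against control, 21 became 50 (offset 64), 10 (no filter), 66 (the 2 groups alone), 33 and 45 (blocks of 6 and 10 and of 7 and 9 arrays), 2 within either set, and 6 to 26 with arrays left out. With CEE+MPA against control, 1819 became 984 without a filter, 980 without the 4 arrays of high muscle signal, 0 within the low set, and 348 (without control replicate 2) to 1981 with arrays left out. With tibolone against control, 7 became 4 in the fit of 2 groups or with either block, 2 within the high set, 0 without the muscle arrays, and 4 to 10 with arrays left out. For CEE+MPA against CEE, 6 became 12 (2 groups), 1 and 0 (low and high sets), 13 without the muscle arrays, and 5 to 13. For tibolone against CEE, 2 became 1 (offset 1, 2 groups or high set), 7 (offset 64 or stricter filter), 0 (block of 6 and 10, or no muscle arrays), and 0 to 238 (without tibolone replicate 4). For tibolone against CEE+MPA, 1820 became 799 (no filter), 215 (2 groups), 735 (block of 6 and 10), 564 (high set), 0 without the muscle arrays, and 209 (without tibolone replicate 2) to 3333 (without tibolone replicate 4).

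The sign changes were these. The second CD68 probe set with CEE against control (0.00) was 0.025 and 0.026 with quantile normalization and median centring, 0.043 in the low set, 0.0027 without the muscle arrays, and -0.065 to 0.070 with arrays left out. For CEE+MPA against CEE under the same first 3 settings, C1QC (-0.01) was 0.0067, 0.024 and 0.115, and the second MRC1 probe set (0.00) 0.015, 0.035 and 0.304, and 0.0032 with an offset of 64. Quantile normalization put the second CLEC7A probe set of tibolone against CEE (0.05) at -0.021, and the first of tibolone against CEE+MPA (0.07) at -0.055; the latter was -0.0085 with median centring. With the block of 6 and 10 arrays, the block of 7 and 9 and within the high set, tibolone against control gave 0.208, 0.067 and 0.244 for C1QC (-0.10) and 0.034, 0.016 and 0.020 for the first CLEC7A set (-0.02). C1QA (-0.07) gave 0.012 and 0.076 in the last 2, and MRC1 of tibolone against CEE (-0.06) gave 0.089 in the first.

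Within the high set, CD14 with CEE (-0.03) was 0.138, CSF1R with tibolone (0.02) -0.044, TYROBP of CEE+MPA against CEE (0.15) -0.012, and the second CLEC7A set 0.237 with CEE+MPA (-0.35), 0.121 with tibolone (-0.23), 0.297 for CEE+MPA against CEE (-0.07) and -0.116 for tibolone against CEE+MPA (0.12). Without the muscle arrays, CSF1R with tibolone was -0.416, the second CLEC7A set of tibolone -0.034 against CEE and -0.029 against CEE+MPA, and the first -0.015 against CEE+MPA. There C1QB and MS4A7 of CEE+MPA against CEE (0.05 and 0.02) were -0.110 and -0.066, the second MRC1 set of tibolone against CEE (0.41) -0.169, and CD68 of tibolone against CEE+MPA (0.14) -0.092.

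With arrays left out in turn, ranges that crossed zero were -0.291 to 0.228 for CD14 with CEE and -0.240 to 0.085 for CLEC7A with CEE+MPA. With tibolone against control they were -0.198 to 0.193 for CSF1R, -0.361 to 0.045 for C1QA, -0.354 to 0.153 for C1QB, -0.337 to 0.125 for C1QC, -0.242 to 0.052 for TYROBP and -0.170 to 0.155 for CLEC7A. For CEE+MPA against CEE they were -0.145 to 0.223 for C1QB, -0.178 to 0.154 for C1QC, -0.066 to 0.199 for MS4A7, -0.230 to 0.169 for the second MRC1 set and -0.154 to 0.019 for the second CLEC7A set. For tibolone against CEE they were -0.119 to 0.016 for the second CD68 set and -0.012 to 0.160 for the second CLEC7A set. For tibolone against CEE+MPA they were -0.054 to 0.350 for CD68 and -0.0055 to 0.190 for CLEC7A.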
